A study of Mus musculus with 4 samples.

Results

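Genes of glycolysis and glycogen metabolism were read in mouse heart RNA 7 and 30 days after newborn mice had received a Tbx6 vector or saline. The members were taken from a list of 40 genes of glucose transport, glycolysis, lactate handling and glycogen turnover, and a member was found by its symbol in the platform annotation. In all, 36 of the 40 were found among the 19505 named genes, each with 1 probe set. Gpi1, Pfkfb1, Pfkfb2 and Eno1 were not analysed here.

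All animals were outbred ICR (Jcl:ICR) mice, injected under the skin of the back on postnatal day 1. The 4 groups were PBS with hearts taken at day 7, Tbx6 at day 7, PBS at day 30 and Tbx6 at day 30, counted from the injection, with 1 Clariom S array each. Tbx6, a T-box factor that acts in the early mesoderm, was delivered in a viral vector and the control was phosphate-buffered saline (PBS) without a vector, so gene and vector cannot be told apart. The kind of vector, its promoter, the sex of the animals and the number of hearts behind each RNA are not known here. The labels are not uniform on the site, since the source names describe delivery to the heart itself.

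Glycolysis splits glucose into pyruvate, which is either turned into lactate or burned in mitochondria, and glycogen is the store from which glucose units can be drawn. The heart of the newborn relies heavily on glycolysis, and after birth it moves towards fatty acids as its main fuel while the insulin-responsive transporter GLUT4 (Slc2a4) gains weight over GLUT1 (Slc2a1). Most steps of the pathway have several enzyme forms encoded by different genes, some typical of striated muscle and others of many tissues.

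The values were the deposited log2 expression values, on which 1 unit is a doubling. A reading was called at background when it was no higher than the highest of 23 background probe sets of its array, which lay between 5.77 and 6.05. Of the 36 members, 27 were above background on every array, and these same 27 were past the expression filter (a mean over the arrays at or above 5.30, the median of all named genes). The other 9 were at background on every array, with readings between 2.54 and 6.02. They were the transporters Slc2a3, Slc2a8 and Slc2a12, the hexokinase-like gene Hkdc1, Pfkfb4, the brain-type forms Aldoc and Eno2, the lactate exporter gene Slc16a3 and the liver form Fbp1. No level or difference is given for them. Nearest to the filter were Gbe1, well above it with a mean of 6.76, and Slc2a12 just below it, at 5.05. The lowest reading of a tested member was 6.36 and the highest 19.37. The highest value of any probe set, taken as the end of the scale, was 19.93.

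**Figure D1:**
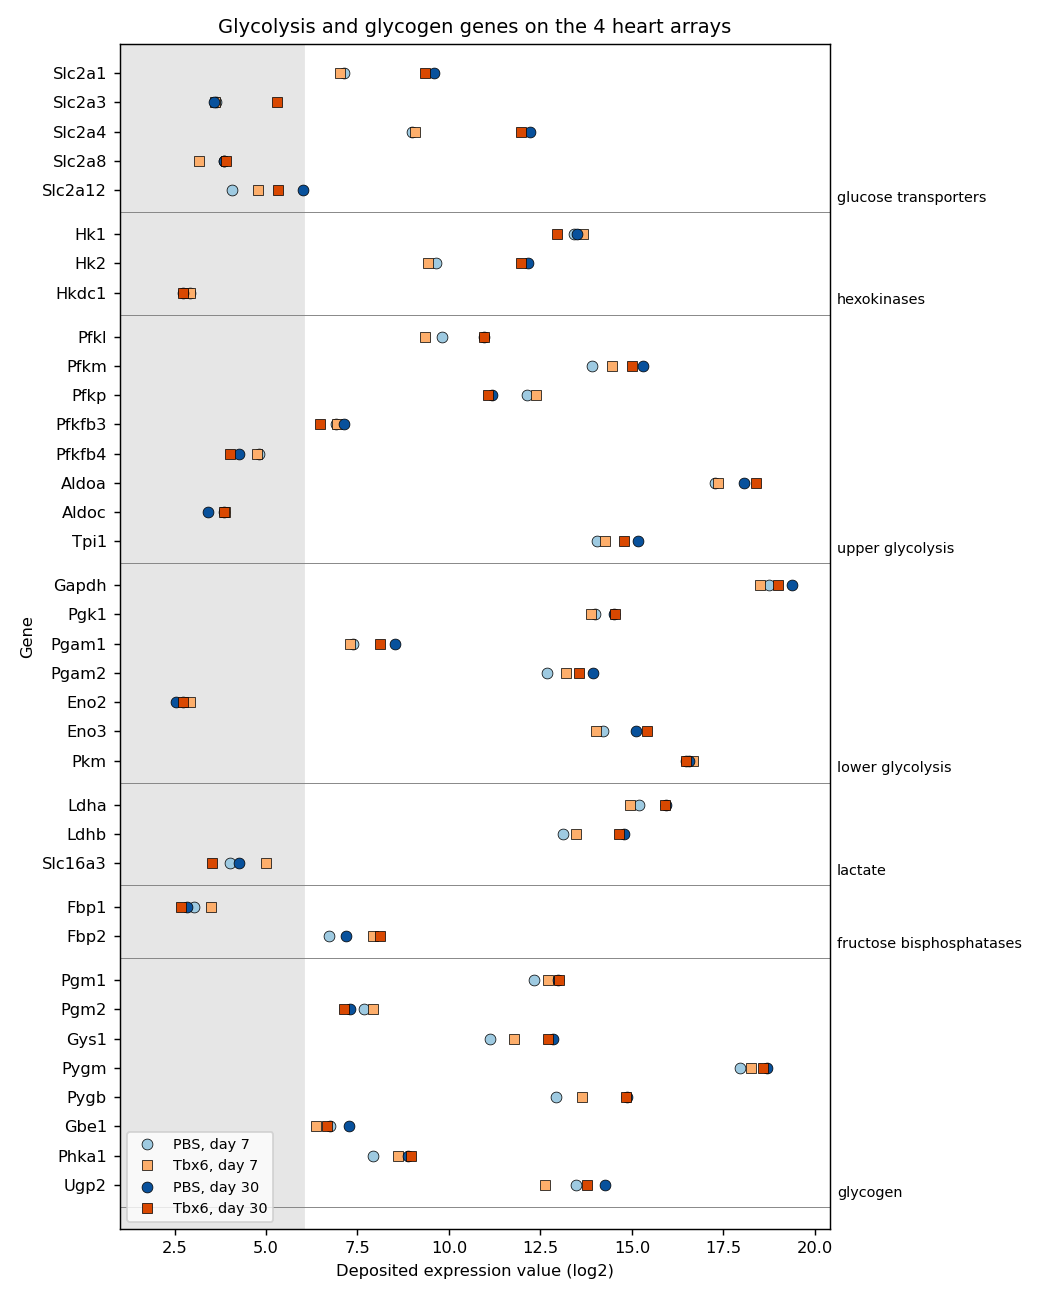
Deposited log2 values (x axis) of the 36 members found (y axis, grouped by role) on each array, with circles for PBS, squares for Tbx6, pale symbols for day 7 and dark symbols for day 30. The grey band ends at 6.05, the highest background probe set of any array, and 9 members lie inside it. Positions along the x axis compare arrays within a gene and not genes with each other.

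The first comparison asked how these genes differed between day 30 and day 7. The glucose transporters and the muscle hexokinase showed the largest changes among the members. Slc2a4 was 8.35-fold higher at day 30, the hexokinase gene Hk2 5.77-fold and Slc2a1 5.24-fold, and Pfkp, the platelet-type phosphofructokinase gene, was 2.20-fold lower. Among the 27 tested members 14 rose and 1 fell, while 12 did not pass the test, with adjusted p between 0.0721 and 0.918 by limma. The share that rose was 51.9%, where 14.2% of the 9753 tested genes rose, and the share that fell was 3.70%, where 12.1% of all tested genes fell. The median change of the members was 0.82 on the log2 scale, against -0.02 over all tested genes.

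The test was limma's additive model with day and injection as terms, two-sided, called at 0.05 after Benjamini-Hochberg adjustment across 9753 genes. It set 2 arrays of each day against each other with 1 residual degree of freedom, so its standard errors (SE) rest mostly on variance shared among genes. Its p-values measure the spread between these arrays only. For each gene that spread is the difference between the day changes after PBS and after Tbx6. Noise and a day change that depends on the injection therefore cannot be told apart. Both arrays of day 30 were above both of day 7 in 20 of the 27 members (74.1%), where 32.7% of all tested genes were. They were below in 2 members (7.41%), Pfkp and Pgm2, where 33.5% of all tested genes were. In 5 members, Hk1, Pfkfb3, Pkm, Fbp2 and Gbe1, the days overlapped.

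Between the single PBS arrays 19 of the 27 members were at least 1.5-fold higher at day 30 (70.4%, where 21.9% of all tested genes were), and 1, Pfkp, was lower (21.5% of all tested genes). Between the Tbx6 arrays 13 were higher (48.1%, where 22.9% were) and Hk1, Pfkp and Pgm2 were lower (21.2%). In either direction 43.4% of all tested genes passed this size after PBS and 44.1% after Tbx6. The median change of the members was 0.79 after PBS and 0.54 after Tbx6, and the difference between these was not tested.

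Without the PBS array of day 30 the number that rose was 7, and without the Tbx6 array of day 30 it was 8. It was 11 without either array of day 7. In these 4 fits day was the only term. Of the 15 calls, those of Slc2a1, Slc2a4, Hk2, Pfkl, Ldhb and Pygb were also made under each of 11 alternative settings, and the other 9 were lost under at least 1 of them. Beside the left-out arrays given with each gene, the calls of Pfkm, Tpi1 and Ldha were lost with no expression filter, those of Pfkm, Aldoa, Tpi1 and Ldha after quantile normalisation and that of Ugp2 with injection left out of the model. In the other direction, 5 uncalled members passed under at least 1 setting. Gapdh, Pgk1, Pgam2 and Pygm did so with an intensity trend in the variance (adjusted p of 0.00386, 0.0295, 0.0255 and 0.0118 by limma), Pgam2 also with median centring, and Pgam2 and Phka1 without the Tbx6 array of day 7.

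**Figure D2:**
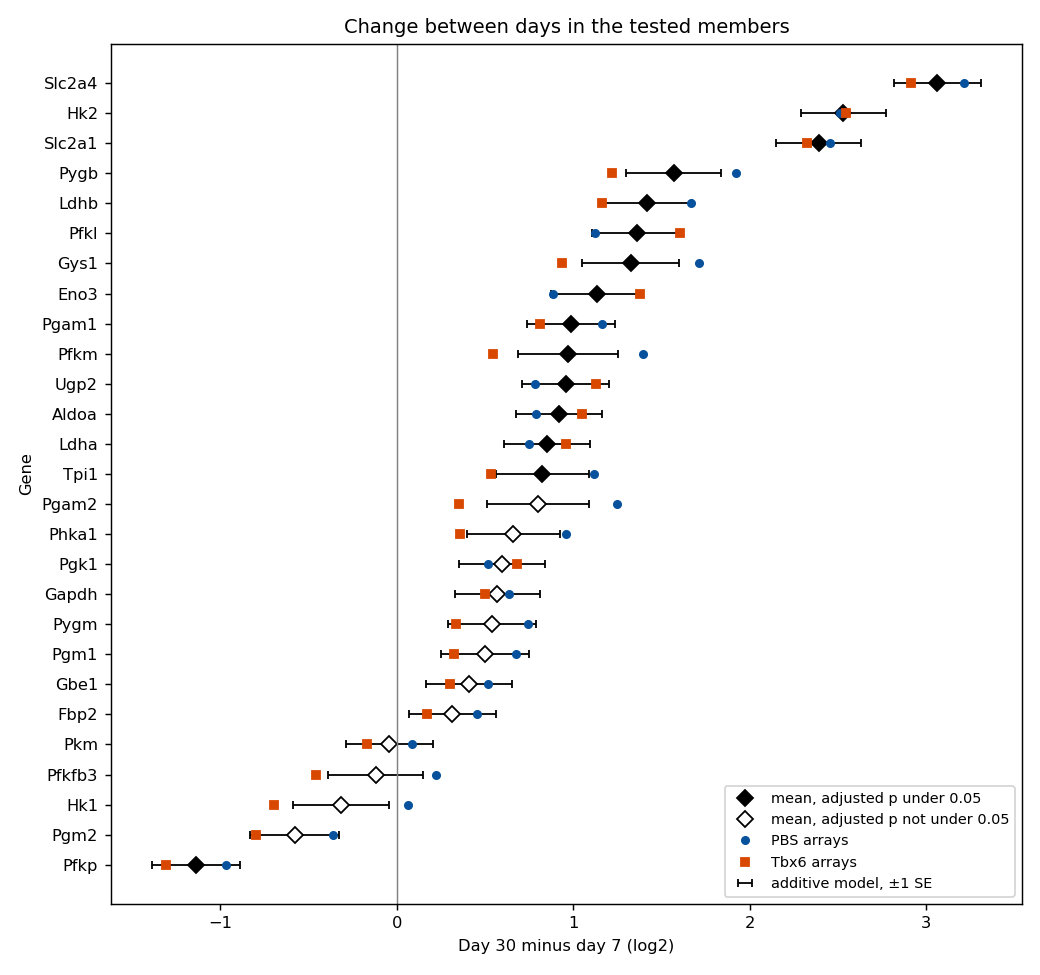
Day 30 minus day 7 on the log2 scale (x axis) for the 27 tested members (y axis, sorted). Diamonds are the additive model's mean with 1 SE on each side, filled where the adjusted p was under 0.05, circles are the difference between the PBS arrays and squares that between the Tbx6 arrays. Slc2a4, Hk2 and Slc2a1 stand apart at 2.39 or more, and Pfkp is lowest at -1.14.

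**Figure D3:**
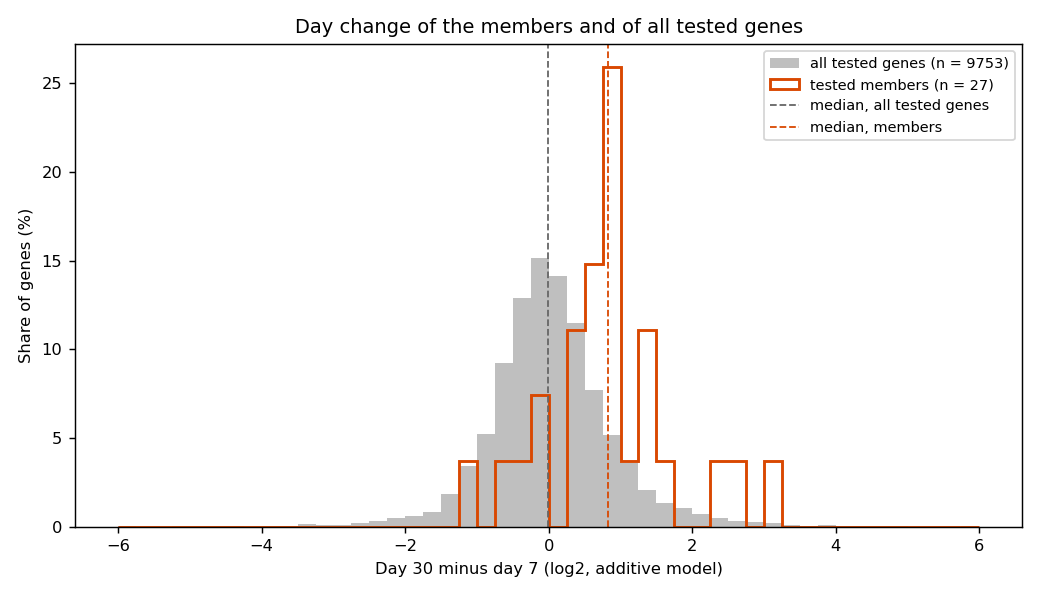
Share of genes in percent (y axis) by the log2 change from day 7 to day 30 (x axis, bins of 0.25) for all 9753 tested genes in grey and for the 27 members in outline. The dashed lines are the medians, -0.02 and 0.82, and 4 genes with a change beyond 6 are drawn in the outermost bins.

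Upstream sequences of the members that led the comparisons are printed here so that the letters shared by genes that rose together can be seen. RefSeq promoter entries (GRCm38.p6) were given for 26 of the 27 tested members, Slc2a4 being the exception, and the 250 bases before the listed start were used. The 6 shown are the 4 largest rises with an entry, the 1 member that fell and Fbp2, the member with the lowest unadjusted p between injections. Their windows are chr4:119108495-119108744 (plus strand) for Slc2a1, chr6:82774455-82774704 (minus strand) for Hk2, chr2:150786546-150786795 (plus strand) for Pygb, chr6:142507958-142508207 (minus strand) for Ldhb, chr13:6648772-6649021 (minus strand) for Pfkp and chr13:62858401-62858650 (minus strand) for Fbp2. Each is written 5′ to 3′ on the strand of the gene and ends at the base before the start. Capitals mark matches on either strand to ACGTG, the core of hypoxia response elements, to CACGTG, an E-box that contains ACGTG, and to GGGCGG, the GC box.
Slc2a1: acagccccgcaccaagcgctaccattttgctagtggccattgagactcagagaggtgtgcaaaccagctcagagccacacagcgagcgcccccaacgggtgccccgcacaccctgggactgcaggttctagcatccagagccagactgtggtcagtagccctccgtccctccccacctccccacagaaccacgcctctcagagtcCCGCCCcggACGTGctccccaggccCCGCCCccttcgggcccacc
Hk2: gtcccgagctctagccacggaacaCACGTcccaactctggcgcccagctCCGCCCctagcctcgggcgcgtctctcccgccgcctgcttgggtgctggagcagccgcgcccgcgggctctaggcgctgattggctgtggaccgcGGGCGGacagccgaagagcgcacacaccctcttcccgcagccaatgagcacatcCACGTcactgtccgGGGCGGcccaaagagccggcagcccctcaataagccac
Pygb: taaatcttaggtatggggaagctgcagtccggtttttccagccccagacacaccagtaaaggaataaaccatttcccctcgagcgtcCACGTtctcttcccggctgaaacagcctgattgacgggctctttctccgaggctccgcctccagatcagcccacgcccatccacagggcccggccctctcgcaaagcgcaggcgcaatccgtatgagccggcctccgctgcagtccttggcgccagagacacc
Ldhb: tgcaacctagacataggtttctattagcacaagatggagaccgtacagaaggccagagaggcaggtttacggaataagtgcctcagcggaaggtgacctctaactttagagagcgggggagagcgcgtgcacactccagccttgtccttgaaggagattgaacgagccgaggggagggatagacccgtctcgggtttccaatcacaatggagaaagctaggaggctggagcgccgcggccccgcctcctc
Pfkp: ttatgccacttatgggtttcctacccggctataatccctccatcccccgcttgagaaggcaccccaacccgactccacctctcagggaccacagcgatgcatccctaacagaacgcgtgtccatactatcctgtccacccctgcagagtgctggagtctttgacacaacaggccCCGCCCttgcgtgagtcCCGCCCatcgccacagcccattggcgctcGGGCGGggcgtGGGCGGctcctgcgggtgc
Fbp2: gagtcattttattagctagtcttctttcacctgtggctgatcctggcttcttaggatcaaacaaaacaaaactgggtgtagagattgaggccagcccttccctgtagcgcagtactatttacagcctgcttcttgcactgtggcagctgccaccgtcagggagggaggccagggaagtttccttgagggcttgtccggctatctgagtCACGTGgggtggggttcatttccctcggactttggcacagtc

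ACGTG was present in the windows of 15 of the 26 tested members with an entry (57.7%), in 1 of the 8 background members with an entry (12.5%) and in those of 18.5% of the 27025 genes of the table, where a gene with several listed starts counted if any window held it. With the first window of each gene alone the shares were 50.0% and 16.6%. Among members that rose it was found in 8 of 13, Slc2a1, Hk2 and Pygb included, and among those that did not pass the day test in 7 of 12 (61.5% and 58.3%). The GC box was found in 14 of 26 (53.8%) against 35.4% of all genes, with 4 matches in Pfkp and 3 in Hk2. CACGTG was found in 4, namely Fbp2, Ldha, Pfkfb3 and Pfkm (15.4% against 6.86%), TATAAA in Pgm1 alone (3.85% against 14.3%) and AAGGTCA, the half-site of oestrogen-related receptors, in 0 (0% against 4.70%). The Ldhb window held none of the 5 motifs. The windows of the members were richer in G and C, with a median of 60.0% against 52.4% over all genes. A match is a description of letters and not a binding site. The genes of the table include those not expressed here, and the motif shares among the 9753 tested genes were not counted.

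Both tested glucose transporters rose, where 14.2% of all tested genes did, and the other 3 measured were at background. Slc2a4, which encodes the transporter that insulin and contraction bring to the muscle cell surface, read 9.0 (PBS) and 9.07 (Tbx6) at day 7, and 12.21 and 11.98 at day 30. The days were far apart and the injections close, with a change of 3.06 (SE 0.25, adjusted p of 0.00012 by limma) that ranked 55 from the top among 9753 genes. Slc2a1, the transporter of basal glucose uptake, read 7.13 and 7.02 at day 7 and 9.58 and 9.35 at day 30. The days were again apart, and the Tbx6 array was slightly lower on each. Its change was 2.39 (SE 0.24, adjusted p of 0.000337 by limma). The log2 ratio of Slc2a4 to Slc2a1 increased by 0.76 between the PBS arrays and by 0.59 between the Tbx6 arrays.

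The hexokinases, which trap glucose in the cell as glucose 6-phosphate, differed from each other. Hk2, the form of insulin-sensitive muscle, read 9.64 (PBS) and 9.43 (Tbx6) at day 7, and 12.15 and 11.97 at day 30, a change of 2.53 (SE 0.24, adjusted p of 0.000262 by limma). Hk1, the widely expressed form, read 13.42 and 13.66 at day 7 and 13.49 and 12.96 at day 30. Its days overlapped, the Tbx6 array of day 30 being the lowest, and its change of -0.32 had an adjusted p of 0.431 by limma. The log2 ratio of Hk2 to Hk1 increased by 2.45 between the PBS arrays and by 3.24 between the Tbx6 arrays, against gaps of 0.44 and 0.35 between arrays of the same day. Hkdc1, the next coding gene to Hk1 on chromosome 10, was at background throughout.

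Phosphofructokinase commits fructose 6-phosphate to glycolysis, and its 3 genes did not move together. Pfkm, the muscle form, read 13.92 (PBS) and 14.46 (Tbx6) at day 7, and 15.31 and 15.005 at day 30. It rose by 0.97 (SE 0.28, adjusted p of 0.036 by limma), with 1.4 between the PBS arrays and 0.54 between the Tbx6 arrays. Pfkl, the liver form, read 9.82 and 9.36 at day 7 and was nearly equal on the arrays of day 30, at 10.94 and 10.96. It rose by 1.36 (SE 0.26, adjusted p of 0.00609 by limma). Pfkp was the opposite case, high at day 7 (12.14 after PBS and 12.37 after Tbx6) and low at day 30 (11.17 and 11.06). It fell by 1.14 (SE 0.25, adjusted p of 0.0119 by limma). The log2 ratio of Pfkm to Pfkp increased by 2.36 between the PBS arrays and 1.85 between the Tbx6 arrays. The call of Pfkp was lost without the Tbx6 array of day 30 (change of -1.08, adjusted p of 0.059 by limma) and that of Pfkm without either array of day 30 or the PBS array of day 7 (changes of 0.70 to 1.12, adjusted p of 0.0739 to 0.151 by limma).

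Pfkfb3, which makes the activator of phosphofructokinase, did not pass, with 6.92 and 6.93 at day 7 and 7.14 and 6.47 at day 30. The Tbx6 array of day 30 was its lowest. Aldoa, the muscle aldolase gene, read 17.28 (PBS) and 17.34 (Tbx6) at day 7, and 18.07 and 18.39 at day 30. Tpi1, which encodes triosephosphate isomerase, read 14.04 and 14.26 at day 7 and 15.16 and 14.79 at day 30. Both rose, Aldoa by 0.92 (SE 0.25, adjusted p of 0.026 by limma) and Tpi1 by 0.82 (SE 0.26, adjusted p of 0.0487 by limma), near the threshold. Both calls were lost when any 1 of the 4 arrays was left out, with changes of 0.76 to 1.08 and adjusted p of 0.0508 to 0.131 for Aldoa, and 0.64 to 1.01 and 0.0565 to 0.191 for Tpi1.

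In the lower part of the pathway 2 of the 6 tested genes rose, where 14.2% of all tested genes did. Eno3, the muscle enolase gene, read 14.21 (PBS) and 14.03 (Tbx6) at day 7, and 15.10 and 15.41 at day 30, a change of 1.13 (SE 0.26, adjusted p of 0.0136 by limma). Pgam1, a phosphoglycerate mutase gene of many tissues, read 7.37 and 7.31 at day 7 and 8.53 and 8.12 at day 30, a change of 0.99 (SE 0.25, adjusted p of 0.0211 by limma). Its muscle counterpart Pgam2 read 12.68 and 13.21 at day 7 and 13.93 and 13.56 at day 30. The days did not overlap in Pgam2 either, but the change of 0.80 (SE 0.29) had an adjusted p of 0.0721 by limma, and it was 1.25 between the PBS arrays against 0.35 between the Tbx6 arrays. The call of Eno3 was lost without the Tbx6 array of day 30 (0.98, adjusted p of 0.0736 by limma). That of Pgam1 was lost without the Tbx6 array of day 7 or the PBS array of day 30 (0.78 to 0.96, adjusted p of 0.0557 to 0.115 by limma).

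Gapdh, Pgk1 and Pkm, the genes of the dehydrogenase and of the ATP-forming kinase steps, did not pass. Gapdh read 18.73 (PBS) and 18.49 (Tbx6) at day 7, and 19.37 and 18.99 at day 30. These readings lay closest of all members to the end of the scale, and the change of 0.57 had an adjusted p of 0.117 by limma. Pgk1 read 13.98 and 13.87 at day 7 and 14.50 and 14.55 at day 30, a change of 0.60 with an adjusted p of 0.104 by limma. In both genes the arrays of day 30 were above those of day 7. Pkm, the pyruvate kinase gene, stayed within 16.47 to 16.66 on all 4 arrays, and its probe set does not tell its splice forms apart. Gapdh, Pgk1, Pgam1, Tpi1, Aldoa and Ldha have processed pseudogene copies, and whether probes are shared with these was not tested.

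Both lactate dehydrogenase genes rose, where 14.2% of all tested genes did. Ldhb, whose subunit predominates in the adult heart enzyme, read 13.10 (PBS) and 13.48 (Tbx6) at day 7, and 14.77 and 14.65 at day 30, a change of 1.42 (SE 0.26, adjusted p of 0.00528 by limma). Ldha, whose subunit predominates in fast muscle, read 15.19 and 14.93 at day 7 and 15.94 and 15.89 at day 30, a change of 0.85 (SE 0.24, adjusted p of 0.0339 by limma). The log2 ratio of Ldhb to Ldha increased by 0.92 between the PBS arrays and by 0.21 between the Tbx6 arrays, while the arrays of day 7 differed from each other by 0.64, so no difference between the genes can be given beyond that gap. The call of Ldha was lost without the Tbx6 array of day 7 or either array of day 30 (0.72 to 0.88, adjusted p of 0.100 to 0.112 by limma).

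Of the 8 glycogen genes 3 rose, 5 did not pass and 0 fell, where 14.2% of all tested genes rose and 12.1% fell. Pygb, the brain-type glycogen phosphorylase gene, read 12.93 (PBS) and 13.63 (Tbx6) at day 7, and 14.85 on both arrays of day 30. Its change of 1.57 (SE 0.27, adjusted p of 0.00421 by limma) exceeded that of the muscle phosphorylase gene Pygm, which read 17.96 and 18.25 at day 7 and 18.70 and 18.59 at day 30. The change of Pygm, 0.54, had an adjusted p of 0.148 by limma. The log2 ratio of Pygb to Pygm increased by 1.18 between the PBS arrays and by 0.88 between the Tbx6 arrays, with gaps of 0.40 and 0.10 between arrays of the same day. The readings of Pygm lay nearer to the end of the scale than those of Pygb.

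Gys1, the muscle glycogen synthase gene, read 11.13 (PBS) and 11.78 (Tbx6) at day 7, and 12.84 and 12.72 at day 30. The lowest array was PBS on day 7, and the gene rose by 1.32 (SE 0.28, adjusted p of 0.00978 by limma). Ugp2, which makes the UDP-glucose that glycogen synthase uses, read 13.48 and 12.63 at day 7 and 14.27 and 13.76 at day 30, and rose by 0.96 (SE 0.25, adjusted p of 0.0236 by limma). Among those that did not pass, Phka1, a regulatory subunit gene of phosphorylase kinase, read 7.93 and 8.61 at day 7 and 8.89 and 8.97 at day 30. The phosphoglucomutase gene Pgm1 read 12.31 and 12.69 at day 7 and 12.99 and 13.02 at day 30, whereas Pgm2 read 7.67 and 7.93 and then 7.31 and 7.14. Pgm1 was thus higher and Pgm2 lower at day 30 without overlap of the days, and their log2 ratio increased by 1.03 and 1.12 after PBS and after Tbx6. Gbe1, the branching enzyme gene, overlapped between days. The call of Gys1 was lost without the PBS array of day 30 (1.26, adjusted p of 0.0616 by limma) and that of Ugp2 without the Tbx6 array of day 7 or either array of day 30 (0.53 to 1.21, adjusted p of 0.0940 to 0.277 by limma).

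Markers of other cells were read beside these changes, since whole hearts were used. Cardiomyocyte markers were high on every array (log2 of their summed level 22.42 to 22.50). Most of the 8 lay at or near the end of the scale (Myh6, Tnnt2, Actc1, Pln, Myl2 and Mb at 19.70 or above on every array), where no change could have been seen, so their summed level says nothing of the days. The 2 clear of it were Tnni3, at 17.27 to 17.63, and Ryr2, at 15.98 to 16.39, and neither passed the day test by limma (changes of 0.18 and 0.21). Of the fibroblast markers 4 of 5 measured fell (Postn by 4.57, Col1a1 by 3.57, Col3a1 by 3.32 and Tcf21 by 1.72), and the log2 of their summed level was 19.08 and 19.09 at day 7 and 18.42 on both arrays of day 30. Of the endothelial markers 2 of 6 fell, Kdr by 1.03 and Cdh5 by 0.91, with a summed level of 16.59 to 16.70 at day 7 and 15.70 to 15.81 at day 30. Of the macrophage markers 3 of 5 rose, Lyz2, C1qa and Csf1r, with a summed level of 10.27 to 10.81 and then 12.63 to 13.04. Fewer cells of a type and less RNA per cell cannot be told apart in such samples, and the part of these shifts in the changes of Pfkp or of any other member was not tested. Of the fast skeletal muscle markers 9 of 11 were at background on all arrays, among them Myh1, Myh2, Myh4, Actn3 and Pvalb, while Myl1 rose by 2.55 and Ckm was high on every array.

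The second comparison set Tbx6 against PBS. By limma 0 of the 27 members, and 0 of all 9753 tested genes, passed the adjusted threshold over both days. At an unadjusted p under 0.05 there were 2 members, Fbp2 and Ugp2, where 4.32% of all tested genes were. Fbp2, the muscle form of fructose bisphosphatase, which runs the phosphofructokinase step backwards, read 6.72 (PBS) and 7.93 (Tbx6) at day 7, and 7.17 and 8.10 at day 30. Tbx6 was above PBS on both days, as in 24.0% of all tested genes. The difference was 1.07 over both days (SE 0.25, unadjusted p of 0.00217, adjusted p of 1 by limma), and it ranked 14 from the highest among 9753 genes. It was 1.21 at day 7 and 0.93 at day 30. Fbp1, its neighbour on chromosome 13 with 0 coding genes between them, was at background on every array.

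Ugp2 was lower after Tbx6 on both days, by 0.85 at day 7 and 0.50 at day 30 on the log2 scale, a difference of -0.68 over both (SE 0.25, unadjusted p of 0.0251, adjusted p of 1 by limma). Gbe1 read 6.75 (PBS) and 6.36 (Tbx6) at day 7 and 7.26 and 6.66 at day 30. Tbx6 was thus below PBS on both days, as in 25.2% of all tested genes. The difference of Gbe1, -0.49 over both days, had an unadjusted p of 0.0762 by limma.

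At day 7 the single Tbx6 array differed from the single PBS array by at least 1.5-fold in 5 of the 27 members (18.5%), where 15.6% of all tested genes did. With 1 array on each side there is no replicate check and no test. The 4 higher members, where 7.23% of all tested genes were higher, were Fbp2 (1.21), Pygb (0.70), Phka1 (0.68) and Gys1 (0.65), and the 1 lower member was Ugp2 (-0.85), where 8.41% were lower. Glycogen genes thus stood on both sides, Pygb, Phka1 and Gys1 above and Ugp2 below. Next in size on the same arrays were Pfkm (0.54), Pgam2 (0.52) and Pfkl (-0.46). Over all 27 members the median was 0.18, with 17 above 0, against -0.02 over all tested genes.

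At day 30 the share was 3 of 27 (11.1%), where 13.2% of all tested genes differed by 1.5-fold. Fbp2 was higher (0.93), where 7.13% of all tested genes were, and Pfkfb3 (-0.67) and Gbe1 (-0.60) were lower, where 6.06% were, followed by Hk1 at -0.52. The median of the members was -0.13, with 20 below 0, against 0.01 over all tested genes. The differences of day 7 and day 30 share no array. In 13 members (48.1%) Tbx6 was above PBS at day 7 and below it at day 30, a pattern of 23.7% of all tested genes. In 4 members Tbx6 was above on both days, namely Fbp2, Phka1, Pgm1 and Aldoa, where 24.0% of all tested genes were. In 7 it was below on both days, where 25.2% were, and in 3 below and then above, where 27.0% were. Whether the injection difference changed between the days was not tested, since 1 array per combination leaves no spread for it.

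**Figure D4:**
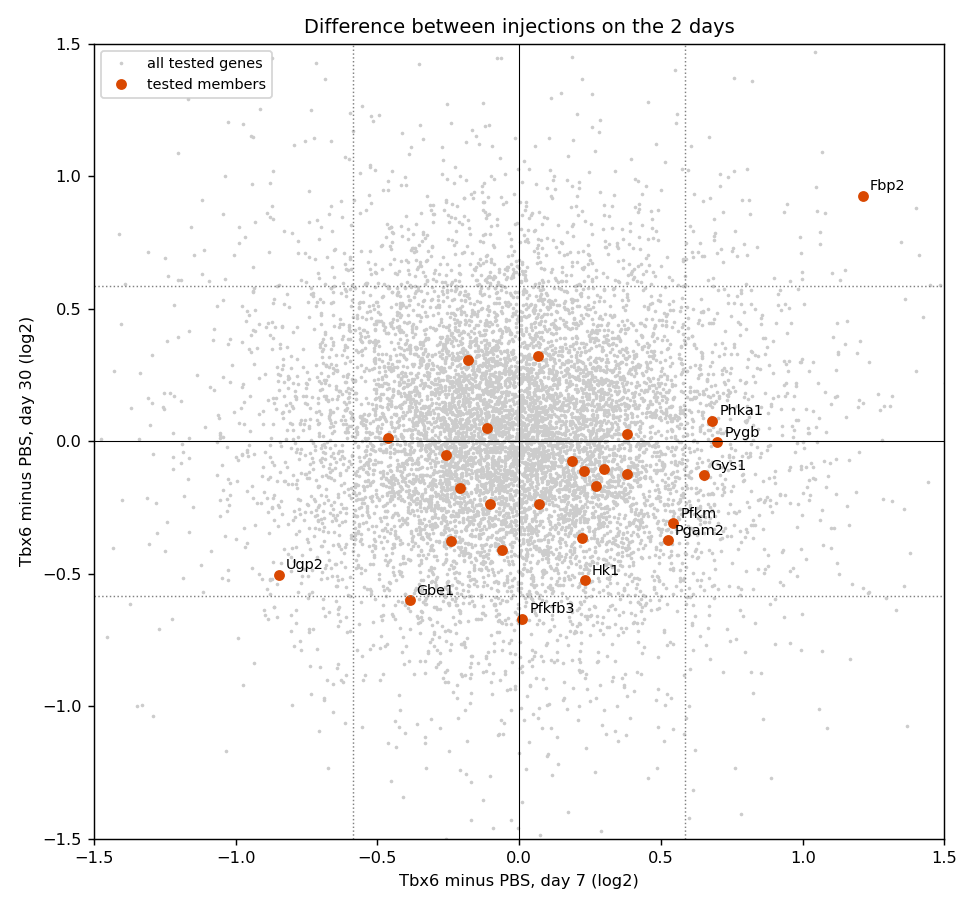
Tbx6 minus PBS on the log2 scale at day 7 (x axis) and at day 30 (y axis) for the 27 members (orange) and all tested genes (grey, with 81 outside the plotted range of 1.5 on either side). Dotted lines mark 1.5-fold, and Fbp2 is the 1 member beyond them on both days.

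Other tissues' markers differed between the injections as well. The adipocyte markers had a log2 summed level of 12.20 after PBS and 9.79 after Tbx6 on day 7, and 9.40 and 11.01 at day 30. Ucp1 led the sum after PBS at day 7 (11.92, against 7.60 after Tbx6). Adipoq led that after Tbx6 at day 30 (9.83, against 7.49 after PBS). Cidea went the other way at day 7, at 8.45 (PBS) and 8.98 (Tbx6). Of the 7 measured, Plin1 and Lep were at background on all arrays, and Retn on both arrays of day 7. The lung epithelial markers stood at 13.24 after PBS at day 7, where Scgb1a1 and Scgb3a1 were above background, and at 6.67 to 7.39 on the other arrays, while Sftpc and Sftpb were at background on all. The erythroid markers stood at 12.57 after PBS at day 7, led by Alas2, and at 9.64 to 10.93 elsewhere. Slc4a1 did not share the day 7 gap of Alas2, reading 7.72 (PBS) and 7.97 (Tbx6). Epb42 was at background on all arrays, and 5 of 8 were not analysed here. The 5 liver markers were at background on every array. The part of these tissues in the day 30 differences of Fbp2, Pfkfb3 and Gbe1 was not tested. Nor was it tested in the day 7 differences of Fbp2, Pygb, Phka1, Gys1 and Ugp2, all measured against the same PBS array. Without that array 11 members rose between the days and Pfkp fell.

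Other genes of glucose metabolism were read from 8 lists that hold 97 genes, 68 of them tested. The counts of these lists are to be read against the 14.2% of all tested genes that rose and the 12.1% that fell. Of the glycogen list beyond the members 4 of 19 tested genes rose and 0 fell, with a median change of 0.35 on the log2 scale. Ppp1r3a, the muscle subunit that brings protein phosphatase to glycogen, rose by 2.02, Gaa, the lysosomal glucosidase that breaks glycogen down, by 1.59, Phkg1, the catalytic subunit of muscle phosphorylase kinase, by 1.48 and Epm2a, the glycogen phosphatase laforin, by at least 0.96. At day 7 Gaa was also higher after Tbx6, at 12.23 against 11.19, as was Ppp1r3b, another glycogen-targeting subunit, at 7.72 against 6.35, which was lower after Tbx6 at day 30 (6.90 against 7.97). These were picked after their values were seen.

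Lactate and pyruvate transport had 3 of 6 tested genes that rose, 0 that fell and a median of 0.84. Slc16a7, a high-affinity monocarboxylate transporter, rose by 1.28, Mpc1, a subunit of the mitochondrial pyruvate carrier, by 1.10 and Ldhd, the D-lactate dehydrogenase, at background in both day 7 samples, by at least 1.03. Of other glycolytic genes 3 of 7 rose, with a median of 0.66. Galm, a sugar mutarotase, rose by at least 2.08 and Tigar, a fructose bisphosphatase-like enzyme, by at least 1.23. The mitochondrial glycerol phosphate dehydrogenase gene Gpd2 rose by at least 1.12. Each of these 3 had 1 array of day 7 at background. The 1 tested gluconeogenesis gene, the glucose phosphatase G6pc3, rose by 2.01. Of the glucose uptake signalling genes 0 of 8 rose and 1 fell, Arrdc4, an arrestin that lowers glucose uptake, which fell by 1.42. The 1 tested gene among the other glucose transporters, Slc2a13, did not pass.

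Among 19 regulators of hypoxia response and glucose use 8 rose and 1 fell (14.2% and 12.1% of all tested genes), with a median of 0.24. Klf15, a transcription factor of fasting metabolism that drives Slc2a4, rose by at least 1.86 from background at day 7, Bnip3, a mitophagy receptor, by 1.89, and the HIF prolyl hydroxylase genes Egln3 and Egln1 by 1.66 and 1.27. Hif1a, whose protein drives many glycolytic genes in low oxygen, read 14.38 (PBS) and 14.18 (Tbx6) at day 7, and 13.04 and 13.61 at day 30. It fell by 0.96 (SE 0.27, adjusted p of 0.0341 by limma) and was named after its value was seen. Over the 8 lists, 0 genes passed for injection by limma, with 4 of 68 at an unadjusted p under 0.05 (5.88%, where 4.32% of all tested genes were).

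**Figure D5:**
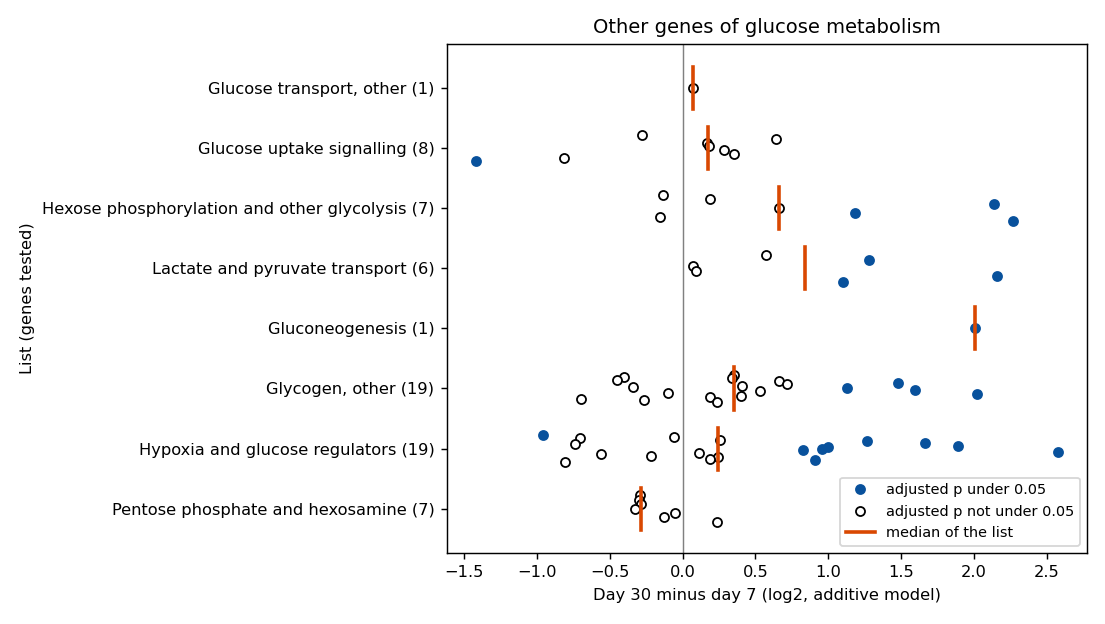
Day 30 minus day 7 on the log2 scale (x axis) for the tested genes of 8 other lists of glucose metabolism (y axis, number tested in parentheses). Filled points had an adjusted p under 0.05 by limma, and the vertical bars are list medians, from -0.29 in the pentose phosphate and hexosamine list to 2.01 for the 1 gene of gluconeogenesis.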

How the data were processed

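Heart RNA of 4 samples was turned into biotinylated cDNA and read on 1-colour Clariom S arrays, per the labels' protocols. The authors normalised the arrays with SST-RMA in Affymetrix Expression Console 1.4, per the series' design text and the submitters' processing notes, and deposited log2 values. Base 2 is not written there and was inferred from their range. Precision is limited by the number of arrays.

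All 28846 probe sets were read. The platform annotation gave 1 symbol to 19572 and several to 0, and for 55 genes with more than 1 probe set the highest mean was kept. The symbols of all 36 members matched RefSeq (GRCm38.p6) by Entrez identifier. The values were used without further normalisation. limma 3.58.1 in R 4.3.3 fitted day and injection to the 9753 genes past the filter, two-sided, with Benjamini-Hochberg adjustment. The same fit was run on data simulated with independent noise, which checks the code and cannot check the lack of replicates. Differences between single arrays got no test and a size rule of 1.5-fold. Where some readings were at background, these were raised to the highest background probe set, and the difference is written as at least that size. Tables and plots used Python 3.11.15, pandas 2.3.3 and matplotlib 3.10.9.

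Members and lists were chosen with earlier results of these data known. Values of all arrays were given for members past the day test, for members 1.5-fold different between injections and for their paralogues, and of each other list up to 4 genes past the day test with the largest change were named. Alternatives were other filters, quantile normalisation, median centring, an intensity trend, averaged probe sets, 1 factor left out and each array left out.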

Additional observations from a re-analysis of the deposited data

How the results depend on the processing

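For the day comparison by limma, the 14 members that rose numbered 10 to 18 under the 7 settings that kept all arrays and 7 to 11 when 1 array was left out, and the 1 that fell numbered 0 to 1. No member called for day changed sign. For injection the numbers were 0 under each of the 11 settings, with adjusted p of 0.971 to 1. With the size rule at 2-fold in place of 1.5-fold, the members higher after Tbx6 numbered 1 in place of 4 at day 7 and 0 in place of 1 at day 30, and those lower 0 in place of 1 and 0 in place of 2. Likewise, members higher at day 30 after PBS numbered 11 in place of 19, those lower 0 in place of 1, and those lower at day 30 after Tbx6 1 in place of 3. With no filter, which adds only members at background, the lower counts were 2 at day 7 and 4 at day 30 after Tbx6, the higher count at day 30 was 2, and the lower count between days after Tbx6 was 6. The count over all genes for day was 1402 without the PBS array of day 30 and 1248 without the Tbx6 array of day 30, against 2562. No pairing of samples was possible, since each combination of day and injection had 1 array. The additive model does compare the days within each injection, and with injection left out 13 members rose and 1 fell. The injection fits without 1 array have no day term, so their sizes mix in the day and are not given. Signal near background limits the 9 members left out. No member reached the highest value of any probe set, but Actc1 (19.70) and Pln (19.83) were flat below it on all 4 arrays. A ceiling may limit Gapdh, Pygm and Aldoa, and this was not tested.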

Other observations

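The pentose phosphate and hexosamine pathways branch off glycolysis. Of the 7 tested genes of these pathways 0 passed the day test by limma, also at an unadjusted p under 0.05, and their median change was -0.29 on the log2 scale. Pgd, the second dehydrogenase of the pentose phosphate pathway, read 8.52 (PBS) and 7.59 (Tbx6) at day 7, and 7.55 and 7.97 at day 30. The PBS array of day 7 was the highest. Gfpt2, an entry enzyme of hexosamine synthesis, read 10.04 and 9.95 at day 7 and 10.38 and 10.08 at day 30, with little difference between arrays.

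Txnip, which encodes an inhibitor of glucose uptake related to Arrdc4, read 16.96 (PBS) and 16.87 (Tbx6) at day 7. At day 30 it read 15.61 after PBS and 16.60 after Tbx6, so that the PBS array of day 30 alone was low, and its change between days of -0.81 did not pass (adjusted p of 0.083 by limma). Pgd, Gfpt2 and Txnip were chosen after their values were seen.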
